A study of Arabidopsis thaliana with 8 samples.

Results

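The mitochondrially encoded genes are the 120 loci of the deposited tables whose identifiers start with ATMG, taken from 27628 loci in all, by identifier alone and without regard to any measured value. Each has 1 transcript model. RNA was sequenced from whole Arabidopsis thaliana seedlings of ecotype Col-0 of 4 genotypes: agb1 (allele agb1-2), hy5 (its allele is not given in the labels), the cry1 cry2 double mutant, and wild type (WT). There were 2 biological replicates of each, 1 library per replicate, and whether seedlings were pooled within a replicate is not given. AGB1 encodes the G-protein beta subunit, HY5 a transcription factor that promotes development in light, and CRY1 and CRY2 the cryptochromes, receptors of blue light. Seedlings of every genotype shared 1 regime on half-strength MS medium with 1% sucrose, namely 3 days at 4 °C, 12 h of white light and 4.5 days of blue light.

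The plant mitochondrial genome keeps a small set of genes for the respiratory chain, for ATP synthase, for the attachment of haem to cytochrome c and for its own ribosome. All other mitochondrial proteins, including most subunits of the same complexes, are encoded in the nucleus and imported. Mitochondrial genes are read by phage-type RNA polymerases made in the nucleus, and their transcript levels depend strongly on RNA processing and decay. In plant mitochondria a poly(A) tail marks RNA for breakdown, and whether these libraries were selected by poly(A) tail is not stated in the labels. A low share of reads in these loci is therefore no measure of how much mitochondrial RNA the seedlings held.

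The libraries held 15651218 to 23098347 counted reads. AGB1 stood at 44.4 and 43.2 CPM (read counts scaled to library total and TMM factor) in agb1, against 75.1 and 64.2 CPM in WT. CRY1 stood at 82.4 and 78.0 CPM in cry1 cry2, against 202 and 198 CPM in WT, and CRY2 at 0.166 and 0.227 CPM, against 224 and 218 CPM in WT. HY5 had 14.0 and 14.9 CPM in hy5 and 15.9 and 14.9 CPM in WT, so its level does not check that label.

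Of the 120 loci, 119 had a read in any library and 56 had enough to be tested. A mean of at least 50 reads per library was reached by 25 loci, a further 25 had a mean of 10 to 50, and 70 had fewer than 10. The locus with most reads held 19.0% of the 64084 reads of the set, the top 3 held 48.0% and the 25 well-counted loci 90.1%. Those 3 are RPS3, ATMG00030 and ATP1. A gene name was given only to 29 loci, 25 by a coding length that fits the same-named gene of the TAIR10.1 mitochondrial annotation and 4 by an annotation note on a nuclear copy. The other loci are called by identifier, with no role. ATMG00665 had no read in any library.

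Scaled to coding length, WT levels spanned a wide range. ATMG00030 had 137 ± 4.77 CPM per kb in WT, and ATMG00280 had 56.1 ± 7.24 CPM per kb (SD, n = 2). RPL16 and RPS3, both ribosomal protein genes, had 50.7 ± 6.99 and 47.7 ± 9.02 CPM per kb and did not differ beyond that spread. NAD9 followed with 31.5 ± 6.36, ATP1 with 25.7 ± 7.16 and RPS12 with 25.1 ± 4.09 CPM per kb. The respiratory genes NAD7, COB and COX1 were lower, at 10.8 ± 2.50, 4.07 ± 0.614 and 3.19 ± 0.721 CPM per kb. The annotated RPS3 and RPL16 frames share 134 bases in TAIR10.1, so their reads are not separate.

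The Columbia nuclear genome carries a large insertion of mitochondrial DNA on chromosome 2, and this decides what a read count of a mitochondrial gene can mean. By sequence match to TAIR10.1, 90 nuclear loci, 88 of them on chromosome 2, matched the mitochondrial genome over at least 80% of their coding length at 95% identity or more. Over all libraries they held 63465 reads, against 64084 in the mitochondrial set, but AT2G07706 alone held 40.5% of them and AT1G28135, outside chromosome 2, 19.2%. The other near-copies held 25571 reads. Among 45 pairs of a mitochondrial locus and its matched nuclear locus, 14 had at least 200 reads in the mitochondrial locus, and in 13 of these the nuclear locus held 40 to 60% of the reads of the pair. The nuclear copy of ATP1 held 51.7% of the reads of its pair, that of COB 50.4%, that of RPL5 50.1% and that of COX3 49.8%. CCMFC was the exception among the 14, with 22.9% in a nuclear copy whose coding model is shorter. Outside the 14, the pair of ATMG00470 and AT2G07706 had most reads of all 45, and 99.9% of them, 25686 against 17, lay in the nuclear locus, whose coding model is longer. How the authors placed reads that match in several places is not given, and for these pairs reads of mitochondrial and of nuclear RNA cannot be told apart.

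The start of the ATP1 frame shows how complete such a copy is. This stretch of 150 bases lies on the plus strand at chr2:3362505-3362654 (TAIR10 coordinates, read from TAIR10.1, where chromosome 2 is the same), within AT2G07698. It was found once on chromosome 2, and all 1524 bases of the TAIR10.1 mitochondrial atp1 coding sequence matched there with 0 mismatches. It is given in lower case throughout because no base differs.
AT2G07698, copy of ATP1: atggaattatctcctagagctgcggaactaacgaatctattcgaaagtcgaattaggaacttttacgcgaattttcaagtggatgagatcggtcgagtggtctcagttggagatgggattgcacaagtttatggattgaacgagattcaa

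**Figure D1:**
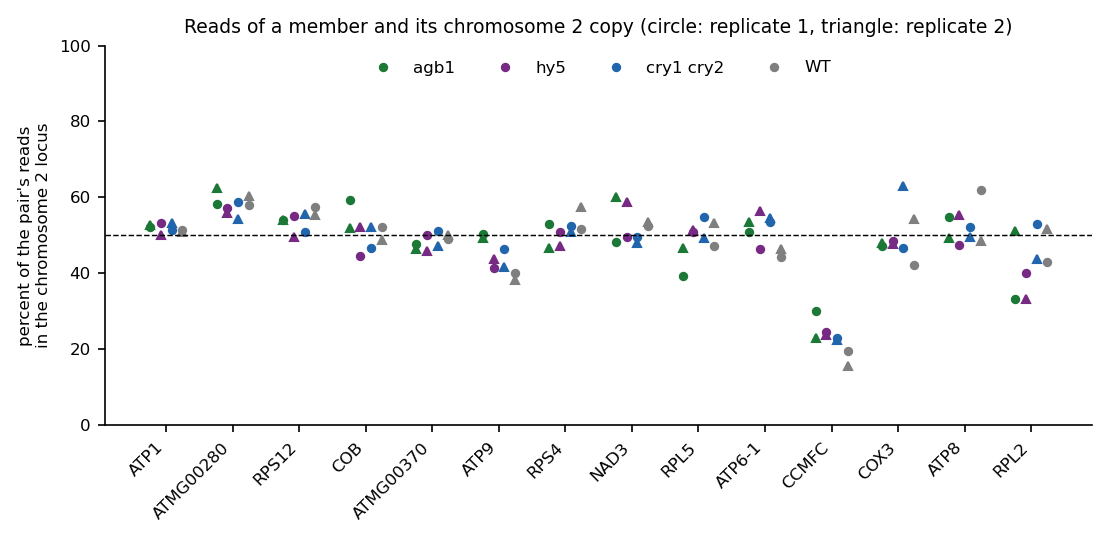
Percent of the reads of each pair that the tables placed in the chromosome 2 locus (y axis), for 14 pairs whose mitochondrial member had at least 200 reads in all (x axis, by reads), with 1 point per library coloured by genotype. Most points lie near the dashed line at 50% and CCMFC lies below it, at 22.9% over all libraries.

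Taken over all 120 loci, the share of counted reads was higher in hy5 and in cry1 cry2 than in WT, and that of agb1 overlapped WT. It was 0.0284% (95% Clopper-Pearson interval 0.0277 to 0.0292) and 0.0390% (0.0380 to 0.0400) in agb1. In hy5 it was 0.0459% (0.0449 to 0.0469) and 0.0599% (0.0588 to 0.0609). In cry1 cry2 it was 0.0554% (0.0543 to 0.0565) and 0.0541% (0.0529 to 0.0552). In WT it was 0.0380% (0.0372 to 0.0388) and 0.0316% (0.0308 to 0.0324). The intervals cover counting error only. Those of the replicates lay apart in agb1, hy5 and WT, and overlapped in cry1 cry2.

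The ratio of means to WT was 0.969 for agb1, 1.52 for hy5 and 1.57 for cry1 cry2. Both libraries of hy5 and both of cry1 cry2 lay above both WT libraries. No p is given for a pooled share, and with 2 libraries against 2 a two-sided exact permutation test cannot pass 0.05. Without ATMG00030 the ratios were 0.966, 1.38 and 1.55, and without the 3 loci with most reads 0.982, 1.38 and 1.49, in the same order. With TMM scaling in place of plain totals, the log2 ratio of cry1 cry2 to WT was 0.47 instead of 0.65.

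Plastid-encoded loci went the other way as a share of reads. Their 88 loci held 1.76% and 1.94% of reads in hy5, 1.70% and 1.68% in cry1 cry2, and 2.48% and 2.30% in WT. In agb1 they held 2.10% and 3.00%. Within each of the 4 genotypes the library with the higher mitochondrial share also had the higher plastid share. The part that such a difference between libraries plays in the results was not tested.

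**Figure D2:**
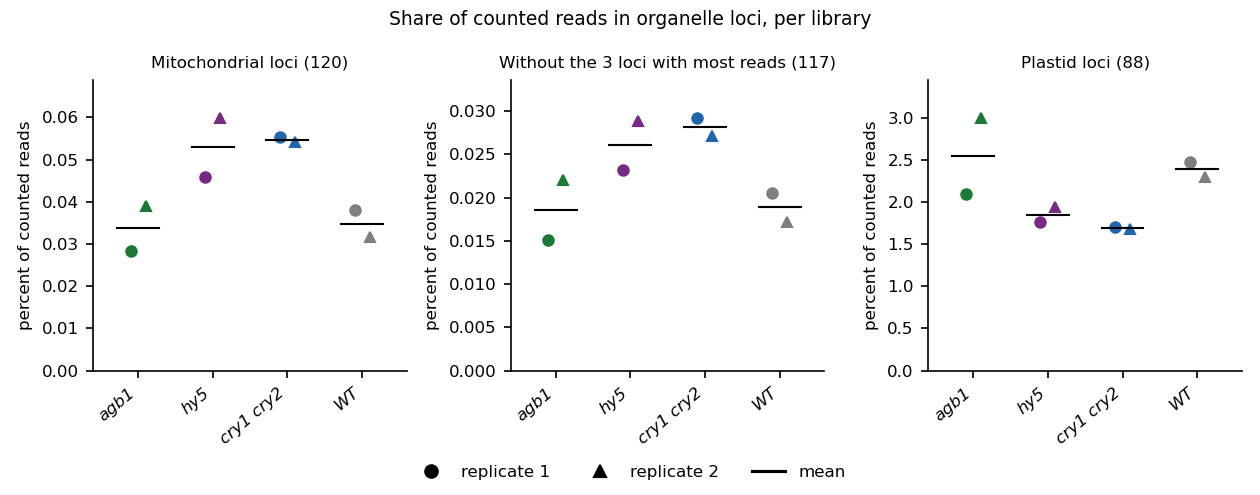
Percent of counted reads (y axis) in all 120 mitochondrial loci, in the 117 left without RPS3, ATMG00030 and ATP1, and in 88 plastid loci, by genotype, with 1 point per library and a line at the mean. In the first 2 panels both libraries of hy5 and of cry1 cry2 lie above both WT libraries; in the plastid panel they lie below them.

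Single loci were tested by edgeR's quasi-likelihood test, with Benjamini-Hochberg adjustment over all 20695 loci tested, and called at an adjusted p under 0.05. In hy5, 16 of the 25 well-counted loci rose against WT and 0 fell, with a median log2 fold change of 0.58. In cry1 cry2, 14 rose and 1 fell, with a median of 0.52. In agb1, 0 of 25 were called in either direction, with a median of -0.02, and 1 of them (ATP6-1) had an unadjusted p under 0.05. The medians over all tested loci lay within 0.01 of 0 in these comparisons.

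Among the 56 loci tested, 22 rose and 0 fell in hy5, where 22.6% of all tested loci rose and 20.2% fell. In cry1 cry2, 23 rose and 1 fell, where 25.6% of all tested loci rose and 25.8% fell. In agb1, 0 were called, where 8.76% of all tested loci rose and 8.41% fell. Counted in either direction, 39.3% of the 56 loci were called in hy5 and 42.9% in cry1 cry2, against 42.9% and 51.4% of all tested loci. Over the 56 loci the share called was thus no higher than elsewhere, and they differed from the rest in direction. Among the 25 well-counted loci the share called was higher than elsewhere, as only 9 in hy5 and 10 in cry1 cry2 were not called. The shares of all tested loci were not restricted by read count. DESeq2 called 11 loci higher in hy5 and 9 in cry1 cry2. The edgeR count in hy5 was 8 without hy5 replicate 2 and 12 without WT replicate 2, and that in cry1 cry2 was 15 without its replicate 1 and 13 without WT replicate 2.

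The members were not independent measurements. Of the 25 well-counted loci, 23 were higher in replicate 2 than in replicate 1 in agb1, with a median ratio of 1.48, and 23 in hy5, with a median ratio of 1.18. In cry1 cry2 and WT it was 8 and 5 of 25, with median ratios of 0.889 and 0.793. The loci thus moved mostly together between libraries of the same genotype, and the counts of called loci are not counts of separate tests.

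**Figure D3:**
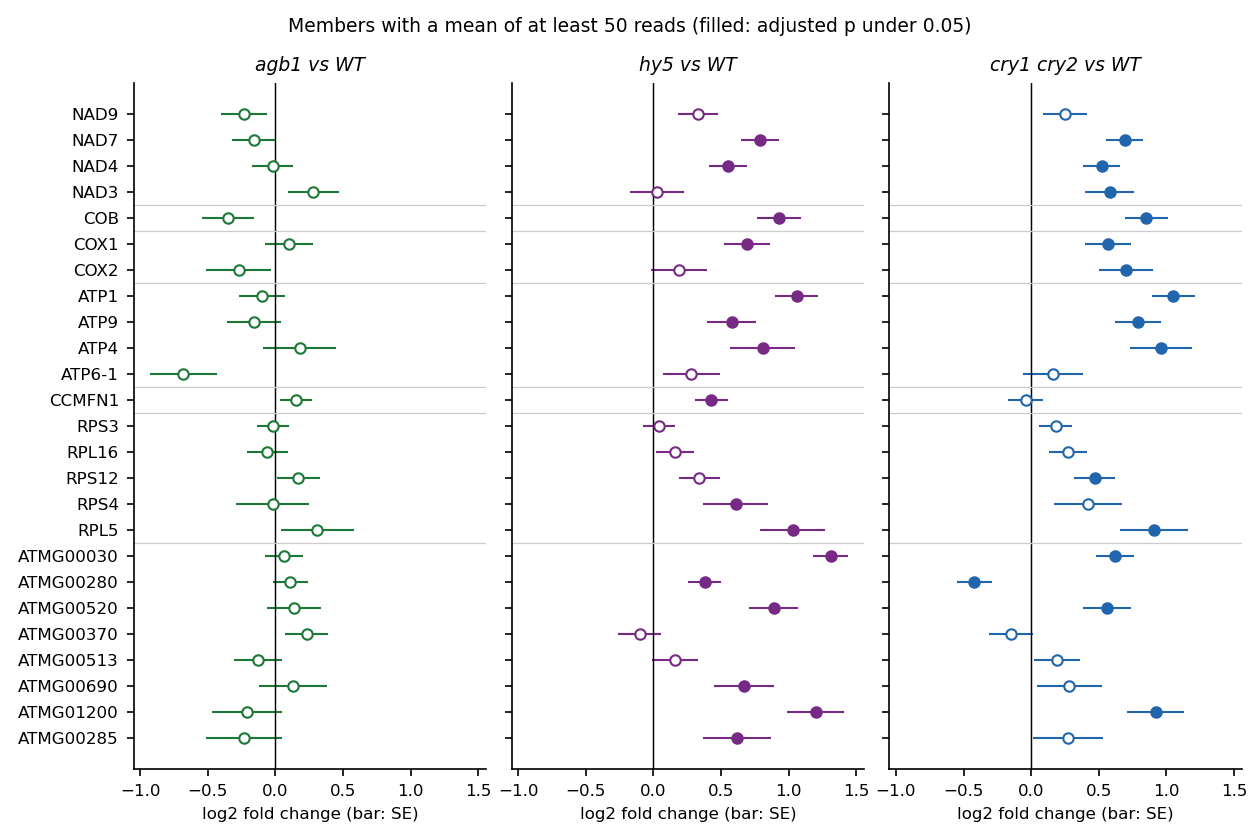
Log2 fold change against WT (x axis; bars are the standard error) of the 25 loci with a mean of at least 50 reads, in agb1, hy5 and cry1 cry2, ordered by role with lines between roles; filled points had an adjusted p under 0.05. Right of 0 lie 24 of 25 points in hy5 and 22 of 25 in cry1 cry2, while RPS3, RPL16 and ATMG00513 lie close to it and ATMG00280 lies left of it in cry1 cry2.

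ATP synthase makes ATP from the proton gradient, and of its 6 named mitochondrial genes 5 rose in hy5 and 4 in cry1 cry2. Among all tested loci 22.6% rose in hy5 and 25.6% in cry1 cry2. ATP1 encodes the alpha subunit of the catalytic head. It had 28.4 and 45.7 CPM in agb1, 67.2 and 96.2 in hy5, 94.3 and 68.4 in cry1 cry2, and 46.8 and 31.4 in WT. The hy5 and cry1 cry2 libraries all lay above those of agb1 and WT, which overlapped. The log2 fold change to WT was 1.06 ± 0.16 in hy5 (SE; adjusted p = 2.17e-06, edgeR) and 1.05 ± 0.16 in cry1 cry2 (adjusted p = 1.51e-06).

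ATP9 and ATP4, which encode the ring subunit and a stalk subunit, also rose. ATP9 changed by 0.58 ± 0.18 in hy5 and 0.79 ± 0.17 in cry1 cry2 on the log2 scale. ATP4 changed by 0.81 ± 0.24 and 0.96 ± 0.23, and ATP8 by 0.80 ± 0.27 and 0.77 ± 0.28. The ATP8 calls in both mutants and the ATP9 call in hy5 were lost under DESeq2 and when some single libraries were left out. The ATP4 calls were kept under DESeq2 but lost in some fits with 1 library left out. For ATP6-2 the change was 0.69 ± 0.28 in hy5, called, and 0.61 in cry1 cry2, not called. That call was lost without either hy5 replicate, without either WT replicate, with replicate number in the fit and under DESeq2. ATP6-1, like ATP6-2 a gene for the channel subunit, was called in neither mutant, at 0.28 and 0.16. Its identical nuclear copy AT2G07741 was called in both, at 0.66 ± 0.23 and 0.65 ± 0.23. That of ATP9, AT2G07671, was also called in both, at 0.77 and 1.07. That of ATP8, AT2G07707, was called in neither, at 0.60 and 0.48. In agb1 ATP6-1 had 1.47 and 2.2 CPM, against 2.68 and 3.12 CPM in WT. That difference of -0.68 on the log2 scale did not pass the adjusted test, although the groups did not overlap.

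ATMG01200 moved with ATP1. Its coding length fits ORF294, an open reading frame 146 bases from atp1 on the same strand of the TAIR10.1 mitochondrion, and the nuclear AT2G07698 covers both. ATMG01200 had 1.86 and 2.33 CPM in agb1, 4.87 and 6.13 in hy5, 4.37 and 4.76 in cry1 cry2, and 2.86 and 1.89 in WT. Its log2 fold change to WT was 1.20 ± 0.21 in hy5 (adjusted p = 2.08e-05, edgeR) and 0.92 ± 0.21 in cry1 cry2 (adjusted p = 0.000579). AT2G07698 itself had 31.1 and 51.1 CPM in agb1, 77.1 and 96.1 in hy5, 99.4 and 78.1 in cry1 cry2, and 49.3 and 32.6 in WT. In each genotype the library that was higher for ATP1 was also higher for it.

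Complex I oxidises NADH, and its core membrane and peripheral subunits include the NAD genes. Of 6 tested members 3 rose in hy5 and 3 in cry1 cry2, and none fell in either. This is to be read against 22.6% and 25.6% of all tested loci that rose. NAD7 had 8.57 and 15 CPM in agb1, 21.4 and 23.3 in hy5, 22.2 and 19.6 in cry1 cry2, and 14.9 and 10.7 in WT. It changed by 0.79 ± 0.14 in hy5 (adjusted p = 3.63e-05, edgeR) and 0.69 ± 0.14 in cry1 cry2 (adjusted p = 0.000157). NAD4 changed by 0.55 ± 0.14 and 0.52 ± 0.14, and was called in both. NAD4L was called only in hy5, at 1.27 ± 0.38, against 0.86 in cry1 cry2, and the test between hy5 and cry1 cry2 was not called. NAD9, the complex I gene with most reads, was not called in either, at 0.33 and 0.25.

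COB encodes cytochrome b, the mitochondrially encoded subunit of complex III. It had 3.27 and 4.39 CPM in agb1, 9.09 and 9.27 in hy5, 9.85 and 7.59 in cry1 cry2, and 5.32 and 4.29 in WT. All libraries of hy5 and cry1 cry2 stood above those of WT and agb1. The change was 0.93 ± 0.16 in hy5 (adjusted p = 1.98e-05, edgeR) and 0.85 ± 0.16 in cry1 cry2 (adjusted p = 4.57e-05). Complex IV, cytochrome c oxidase, passes electrons to oxygen, and its core subunit gene COX1 changed by 0.69 ± 0.17 and 0.57 ± 0.17, called in both. COX3 was called in neither, at 0.40 and 0.59. Its identical nuclear copy AT2G07687 was called in cry1 cry2, at 0.96 ± 0.26, and not in hy5, at 0.43. That of COB, AT2G07727, was called in both, at 0.81 and 0.76.

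COX2 and NAD3 were called in the test between hy5 and cry1 cry2. COX2 had 3.46 and 4.66 CPM in hy5, 6.37 and 5.27 in cry1 cry2, and 4.11 and 3.02 in WT. It rose in cry1 cry2, by 0.70 ± 0.20 on the log2 scale, and was not called in hy5, at 0.19. The test of hy5 against cry1 cry2 gave -0.51 ± 0.20 (adjusted p = 0.0427, edgeR). NAD3 had 3.34 and 3.49 CPM in hy5, 5.42 and 4.59 in cry1 cry2, and 3.66 and 3.02 in WT, and the same test gave -0.55 ± 0.19 (adjusted p = 0.0179). Both calls were lost without hy5 replicate 1, without cry1 cry2 replicate 1 and under DESeq2, and that of NAD3 also without hy5 replicate 2. The identical nuclear copy of NAD3, AT2G07751, held 52.5% of the reads of that pair. It was not called in the same test, at -0.20 ± 0.21 (adjusted p = 0.472, edgeR).

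Of the 5 cytochrome c maturation genes, whose products attach haem, 2 rose in hy5 and 1 in cry1 cry2. Their median log2 fold changes were 0.54 and 0.49. Among all tested loci 22.6% rose in hy5 and 25.6% in cry1 cry2, and whether these 5 genes differ from that was not tested. CCMFN1 had 11.3 and 12.8 CPM in agb1, 13.3 and 15.7 in hy5, 9.74 and 11.4 in cry1 cry2, and 9.92 and 11.8 in WT. It rose by 0.43 ± 0.12 in hy5 (adjusted p = 0.00393, edgeR), was at -0.04 in cry1 cry2, and differed between these mutants by 0.47 ± 0.12 (adjusted p = 0.00244). CCMFC rose in both, by 0.66 ± 0.23 and 0.65 ± 0.23. Its call in hy5 was lost without either hy5 replicate, without either WT replicate and under DESeq2. Its call in cry1 cry2 was lost without cry1 cry2 replicate 1, without WT replicate 1 and under DESeq2. CCMB, CCMFN2 and CCMC, which had fewer reads, were called in neither mutant.

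The ribosomal protein genes include the locus with most reads of the whole set. RPS3, a protein of the small subunit, had 63.7 and 95.1 CPM in agb1, 69.2 and 94.7 in hy5, 92.8 and 87.9 in cry1 cry2, and 90.2 and 68.9 in WT. The libraries of each mutant overlapped those of WT, and no comparison was called, with log2 fold changes to WT of -0.02, 0.04 and 0.18 in agb1, hy5 and cry1 cry2. RPL16, which shares bases with it, had -0.06, 0.16 and 0.27. RPL5 rose by 1.03 ± 0.24 in hy5 (adjusted p = 0.000924, edgeR) and 0.91 ± 0.25 in cry1 cry2 (adjusted p = 0.00273). RPS4 rose in hy5 alone by the test, at 0.61 ± 0.24, and RPS12 in cry1 cry2, at 0.47 ± 0.15, and neither was called between these mutants. The identical nuclear copy of RPS4 was not called in hy5, at 0.33, nor that of RPS12 in cry1 cry2, at 0.26. That of RPL5 was called in both mutants, at 1.13 and 1.08. The RPS4 call was lost without either hy5 replicate, without WT replicate 2 and under DESeq2. The RPS12 call was lost without cry1 cry2 replicate 1, without WT replicate 2 and under DESeq2. RPS7 rose in cry1 cry2, at 1.48 ± 0.49, on a mean of fewer than 10 reads per library. That call was lost when RPS7 was summed with its identical nuclear copy AT2G07696, which was at -0.64 and not called, and also without cry1 cry2 replicate 2, without WT replicate 1 and under DESeq2. Over the 7 genes 2 rose in hy5 and 3 in cry1 cry2, which is 28.6% and 42.9%, against 22.6% and 25.6% of all tested loci.

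**Figure D4:**
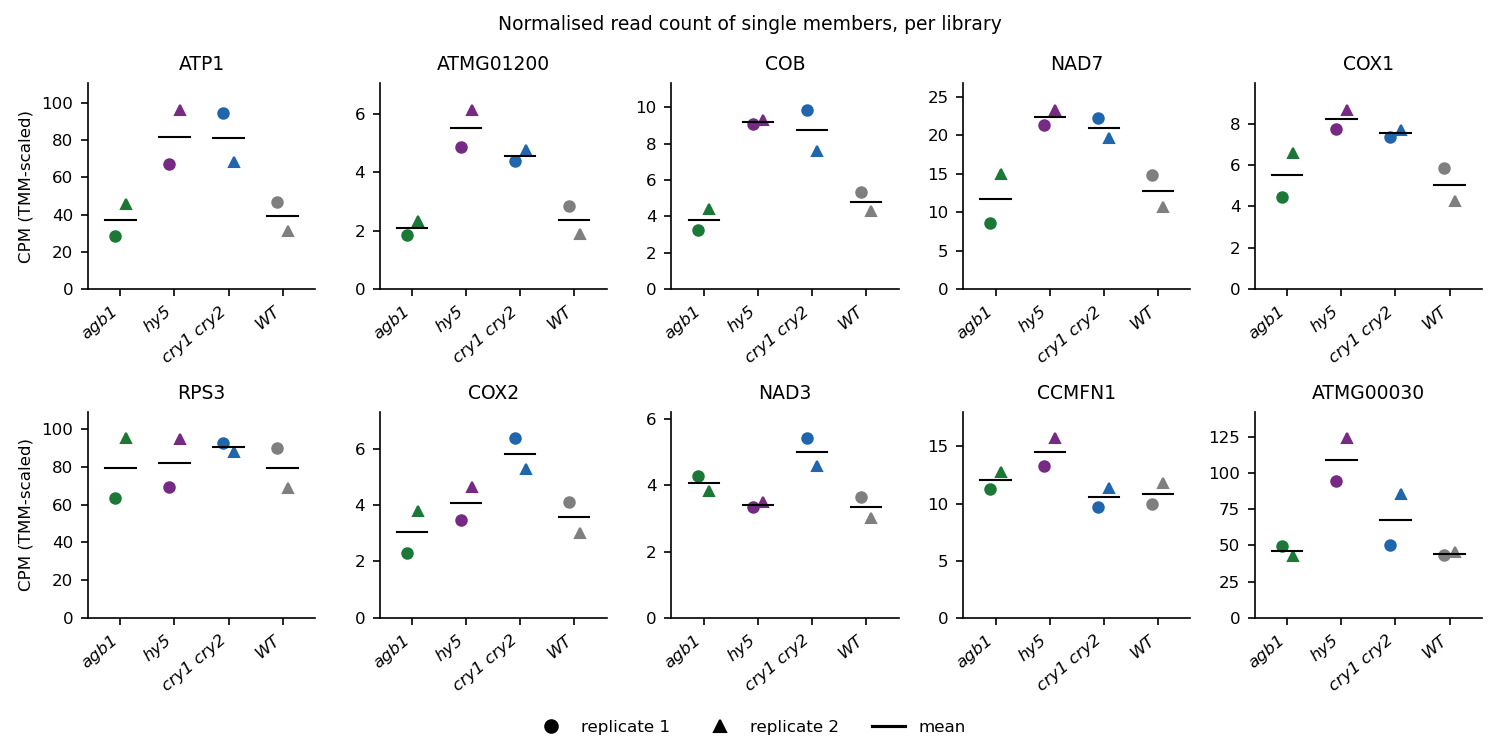
TMM-scaled CPM (y axes, each from 0) of 10 loci by genotype, with 1 point per library and a line at the mean. ATP1, ATMG01200, COB, NAD7 and COX1 are higher in hy5 and cry1 cry2 than in WT, RPS3 overlaps across genotypes, COX2 and NAD3 are highest in cry1 cry2, and CCMFN1 and ATMG00030 are highest in hy5.

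Among the 91 loci without a name, 28 were tested, of which 8 rose in hy5 and 9 in cry1 cry2, and 1 fell in cry1 cry2. In either direction 28.6% of the 28 were called in hy5 and 35.7% in cry1 cry2. Of all tested loci 22.6% rose and 20.2% fell in hy5, and 25.6% rose and 25.8% fell in cry1 cry2. The shares that rose were thus not far from those of all loci. ATMG00030 had the lowest p in hy5. It had 49.6 and 42.4 CPM in agb1, 94.6 and 124 in hy5, 50 and 85.6 in cry1 cry2, and 43.2 and 45.3 in WT. Its change was 1.31 ± 0.13 in hy5 (adjusted p = 2.27e-09, edgeR) and 0.62 ± 0.14 in cry1 cry2 (adjusted p = 0.000362), and hy5 exceeded cry1 cry2 by 0.69 ± 0.13 (adjusted p = 4.93e-05). The cry1 cry2 libraries were far apart, and without replicate 2 that change was no longer called. Neither coding length nor an annotation note gave ATMG00030 a name, so it was given no identity.

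ATMG00520 rose by 0.89 ± 0.18 in hy5 and 0.56 ± 0.18 in cry1 cry2. ATMG00690 and ATMG00285 were called only in hy5, at 0.67 ± 0.22 and 0.62 ± 0.25, with 0.28 and 0.27 in cry1 cry2 and no call between these mutants. ATMG00513 and ATMG00370 were called in neither. ATMG01350 had 1.17 and 1.62 CPM in hy5 and 0.609 and 0.680 CPM in cry1 cry2, and that difference was called at 1.12 ± 0.40 (adjusted p = 0.0238, edgeR) on a mean of 15.25 reads per library.

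ATMG00280 was the 1 locus that fell in cry1 cry2. It carries a piece of the large subunit of Rubisco, the carbon-fixing enzyme of the chloroplast, according to the note on its nuclear copy AT2G07732. ATMG00280 had 16.5 and 24.2 CPM in agb1, 20.9 and 27.1 in hy5, 13.8 and 14.1 in cry1 cry2, and 20.2 and 16.8 in WT. Its log2 fold change was 0.11 in agb1, 0.38 ± 0.12 in hy5 (adjusted p = 0.0137, edgeR) and -0.42 ± 0.13 in cry1 cry2 (adjusted p = 0.0109). The value in hy5 exceeded that in cry1 cry2 by 0.79 ± 0.13 (adjusted p = 1.11e-05). The call in cry1 cry2 against WT was lost with plain library sizes, without WT replicate 1 and under DESeq2. That in hy5 against WT was lost without hy5 replicate 2, without WT replicate 2 and under DESeq2.

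The plastid gene rbcL, which encodes that subunit, had 579 and 968 CPM in agb1, 796 and 927 in hy5, 561 and 449 in cry1 cry2, and 735 and 643 in WT. Its log2 fold changes to WT were 0.16, 0.32 and -0.45 in agb1, hy5 and cry1 cry2, and hy5 exceeded cry1 cry2 by 0.77. The order of libraries within each genotype was the same for both loci except in cry1 cry2, where ATMG00280 barely differed. The nuclear copy aligned with rbcL over 318 positions, 306 of them identical (96.2%), and the longest identical run was 110 bases. The pair of stretches below shows how alike they are over 180 bases. The first is on the minus strand at chr2:3468557-3468736 (TAIR10) and the second is bases 543 to 722 of the rbcL coding sequence, on the plus strand of the plastid genome. Capitals mark the 5 positions at which they differ.
AT2G07732, copy of ATMG00280: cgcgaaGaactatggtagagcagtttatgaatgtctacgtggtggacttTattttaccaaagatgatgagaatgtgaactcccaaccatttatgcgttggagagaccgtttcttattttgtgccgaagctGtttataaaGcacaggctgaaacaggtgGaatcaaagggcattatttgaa
plastid rbcL: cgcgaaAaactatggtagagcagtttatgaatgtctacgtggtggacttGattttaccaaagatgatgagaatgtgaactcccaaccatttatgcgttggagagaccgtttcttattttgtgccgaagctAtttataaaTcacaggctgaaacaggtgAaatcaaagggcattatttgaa

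AT2G07732 itself had 23.1 and 40.2 CPM in agb1, 28.1 and 34.5 in hy5, 19.7 and 16.7 in cry1 cry2, and 27.8 and 25.6 in WT. It fell by 0.56 on the log2 scale in cry1 cry2 (SE 0.15; adjusted p = 0.00219, edgeR). Whether reads of rbcL were counted in ATMG00280 was not tested. Neither the fall of ATMG00280 in cry1 cry2 nor its rise in hy5 is assigned to mitochondrial RNA.

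**Figure D5:**
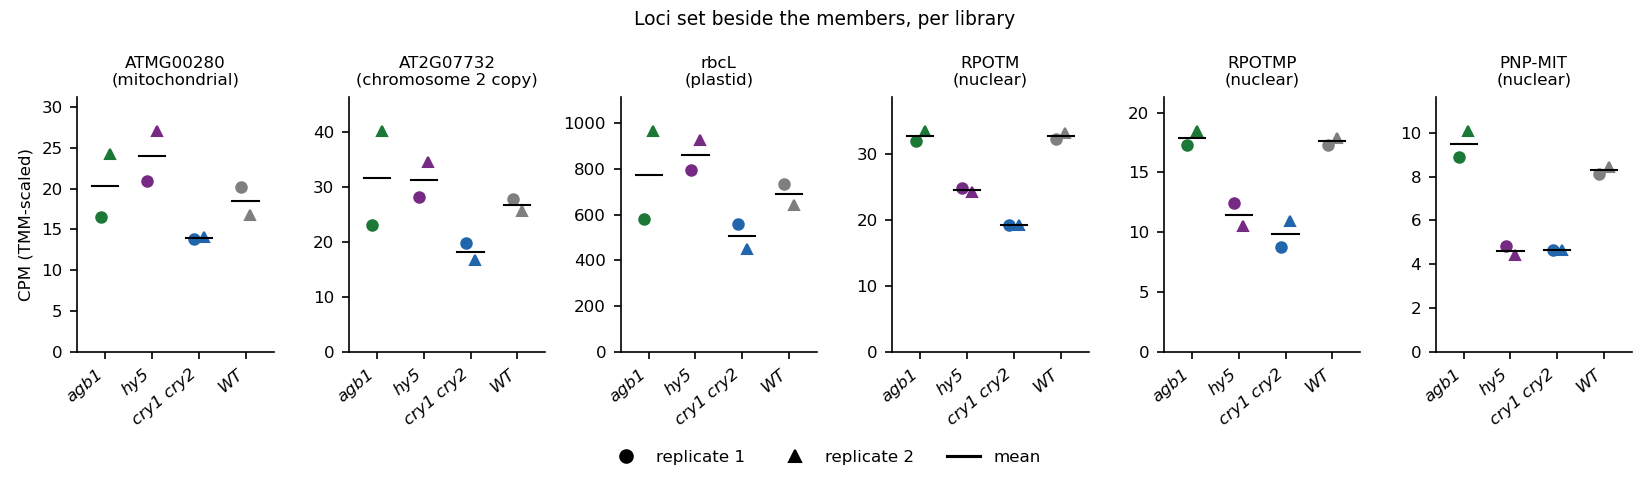
TMM-scaled CPM (y axes, each from 0) of ATMG00280, its chromosome 2 copy, plastid rbcL and the nuclear genes RPOTM, RPOTMP and PNP-MIT by genotype, with 1 point per library and a line at the mean. In the first 3 panels the mean is lowest in cry1 cry2, and the last 3 are lower in hy5 and cry1 cry2 than in agb1 and WT.

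The mutants were also tested against each other. Against hy5, agb1 had 0 higher and 19 lower loci of 56, where 24.2% of all tested loci were higher and 25.7% lower. Against cry1 cry2, agb1 had 2 higher and 18 lower, where 28.8% of all tested loci were higher and 29.1% lower. The log2 fold change of COB in agb1 was -1.28 ± 0.18 against hy5 (adjusted p = 4.73e-07, edgeR) and -1.20 ± 0.18 against cry1 cry2 (adjusted p = 9.95e-07). Those higher in agb1 than in cry1 cry2 were ATMG00280 and ATMG00370. Both calls were lost with plain library sizes, without agb1 replicate 2 and under DESeq2. That of ATMG00370 was also lost in the fit of the 2 genotypes and without cry1 cry2 replicate 1. The nuclear copy of ATMG00280 was called in the same test, at 0.78, and that of ATMG00370 was not, at 0.27. ATMG00370 matches a piece of the plastid gene ycf1 by its nuclear copy's note. Between hy5 and cry1 cry2, 4 loci were higher in hy5 and 2 lower, where 23.2% and 20.6% of all tested loci were. Without agb1 replicate 1 the agb1 counts were 6 against hy5 and 10 against cry1 cry2.

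Nuclear genes of the same pathway were counted from lists. Of 31 nuclear-encoded respiratory subunits, 3 rose and 0 fell in agb1, 8 rose and 2 fell in hy5, and 19 rose and 0 fell in cry1 cry2, with median log2 fold changes of 0.06, 0.07 and 0.20. Of all tested loci 8.76% rose and 8.41% fell in agb1, 22.6% rose and 20.2% fell in hy5, and 25.6% rose and 25.8% fell in cry1 cry2, so the shares that rose in agb1 and hy5 were near those of all loci. CIPSST, a complex I subunit, rose by 0.39 ± 0.06 in hy5 and 0.29 ± 0.06 in cry1 cry2. ATPBETA2 and ATPBETA3, beta subunits of ATP synthase and near-identical neighbours, had 0.36 ± 0.06 and 0.32 ± 0.06 in cry1 cry2 and 0.01 and 0.11 in hy5. COX5B-1 rose in agb1 by 0.25 ± 0.07. The changes named here for CIPSST, ATPBETA2 and ATPBETA3 in hy5 and cry1 cry2 were smaller than those of ATP1 and COB in the same mutants.

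The alternative oxidases and NAD(P)H dehydrogenases bypass the proton-pumping complexes, and 9 of 12 were tested. In agb1 1 rose and 3 fell, in hy5 1 rose and 3 fell, and in cry1 cry2 3 rose and 4 fell, to be read against the same shares of all tested loci. NDB3 had 6.94 and 7.28 CPM in agb1, 8.56 and 7.85 in hy5, 5.92 and 5.16 in cry1 cry2, and 2.64 and 2.76 in WT, and rose in all of them. NDA1 had 0.387 and 0.0567 CPM in cry1 cry2, against 34.8 and 34.3 CPM in WT. It had 25.5 and 23.7 CPM in agb1, where it fell by 0.49 on the log2 scale, and 38.6 and 35.1 in hy5. NDB2 fell by 0.56 in hy5, and NDC1 fell by 1.02 in cry1 cry2.

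All 3 nuclear genes listed for mitochondrial transcription and RNA turnover fell in hy5 and in cry1 cry2, where 20.2% and 25.8% of all tested loci fell. In these mutants 22 and 23 of the 56 tested mitochondrial loci rose, where 22.6% and 25.6% of all tested loci did. RPS3 was called in neither mutant. RPOTM, a mitochondrial RNA polymerase, had 32.0 and 33.6 CPM in agb1, 24.9 and 24.3 in hy5, 19.3 and 19.2 in cry1 cry2, and 32.3 and 33.2 in WT. It fell by 0.41 in hy5 (SE 0.07; adjusted p = 4.16e-05, edgeR) and by 0.77 in cry1 cry2 (SE 0.08; adjusted p = 1.21e-09). RPOTMP, a polymerase of mitochondria and plastids, fell by 0.63 in hy5 and by 0.84 in cry1 cry2. PNP-MIT, a polynucleotide phosphorylase that degrades mitochondrial RNA, had 4.81 and 4.41 CPM in hy5, 4.65 and 4.65 in cry1 cry2, and 8.13 and 8.43 in WT. It fell by 0.85 in hy5 and by 0.83 in cry1 cry2. None of the 3 was called in agb1, at 0.00, 0.02 and 0.19. Whether these genes have a part in the mitochondrial values was not tested.

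Markers of organs moved with genotype in the same libraries. Summed over RBCS1A, LHCB1.3 and LHCB3, green-tissue markers stood at 41397 and 41207 CPM in agb1, 10578 and 10807 in hy5, 4016 and 3859 in cry1 cry2, and 28274 and 26425 in WT. LHCB1.3 makes up most of that sum, and RBCS1A on its own rose in hy5 by 0.17 on the log2 scale (adjusted p = 0.0046, edgeR), while the LHCB genes fell there. Root markers PYK10, CASP1 and COBL9 summed to 2941 and 2920 CPM in agb1, 6725 and 6876 in hy5, 7171 and 7043 in cry1 cry2, and 4261 and 4274 in WT. PYK10 and CASP1 rose in hy5 and cry1 cry2, while COBL9 fell in hy5 and was not called in cry1 cry2. The seed storage gene CRA1 had 0.959 and 1.10 CPM in agb1, 3.11 and 3.70 in hy5, 29.0 and 35 in cry1 cry2, and 3.57 and 4.65 in WT. No marker was at 0 in any group. In whole seedlings fewer cells of a type and less RNA per cell cannot be told apart, and the part of organ makeup in the mitochondrial values was not tested.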

How the data were processed

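The 8 deposited tables list 48321 transcript models. Their raw read counts and RPKM were made by the authors, per the file headers. The submitters' processing notes name Bowtie2 2.2.2 and TAIR10. The counting tool, strand and treatment of reads with several matches are not stated there. RPKM was used only to derive coding lengths. The mitochondrial set was picked as a subject, and the gene lists were chosen, with earlier results of these data known; which loci belong to the set follows from their identifiers alone.

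Counts were summed over the models of each of 27628 loci. Loci were filtered by filterByExpr, which left 20695 of 24741 with a read, and tested in edgeR 4.0.16 under R 4.3.3 (TMM scaling, glmQLFTest, 1 mean per genotype over 8 libraries, 4 residual degrees of freedom, common coefficient of variation 0.0426). Standard errors are the absolute log2 fold change over the square root of F. The procedure was tested on simulated data. Totals of 15651218 to 23098347 reads put 3 reads at 0.192 to 0.13 CPM. Nuclear copies were found with blastn on TAIR10.1, whose mitochondrial sequence is not that of TAIR10, so no mitochondrial coordinates are given. Named loci were those with a mean of at least 50 reads, role genes, called loci with the lowest p, and list genes with the lowest p; CCMFC, ATMG01350, ATMG00370, ATMG00470, AT1G28135 and the loci set beside ATMG00280 were described after their values were seen. Alternatives were RLE, plain library sizes, scaling from nuclear loci, other filters, fits of 2 genotypes, a replicate block, libraries left out in turn, DESeq2 1.42.0, the model with most reads, and members summed with nuclear copies.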

Additional observations from a re-analysis of the deposited data

Results flagged for a closer look

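The effects of hy5 and of cry1 cry2, each against WT, differed by a direct test between the mutants in 6 loci (edgeR, adjusted p under 0.05). That is 10.7% of the 56 tested, where 23.2% of all tested loci were higher and 20.6% lower in hy5. The set was thus called less often in this test than all tested loci. On the log2 scale hy5 minus cry1 cry2 was 0.79 for ATMG00280, 0.69 for ATMG00030, 0.47 for CCMFN1, 1.12 for ATMG01350, -0.55 for NAD3 and -0.51 for COX2. In this direct test ATMG00280 was called under every alternative run, and each of the others was lost under at least 1. The calls of ATMG00280 against WT were not all kept.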

How the results depend on the processing

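Scaling by RLE or from nuclear loci, the transcript model with most reads, summing with nuclear copies, the filters at 1 CPM, the fits of 2 genotypes and the replicate block kept the counts called in hy5 and cry1 cry2 within 1.5 times. DESeq2 called 11 loci in hy5 and 9 in cry1 cry2 against WT, 9 and 8 in agb1 against hy5 and cry1 cry2, and 2 between hy5 and cry1 cry2. In agb1 against WT 1 was called with plain library sizes and 1 without a filter. With 1 library left out, counts ran from 0 to 4 in agb1, 8 to 24 in hy5 and 13 to 26 in cry1 cry2 against WT, from 6 to 26 in agb1 against hy5, 10 to 25 in agb1 against cry1 cry2 and 3 to 6 in hy5 against cry1 cry2. The lone library of an arm was then assumed to vary like the others. Pooled log2 ratios ran from -0.29 to 0.17, 0.40 to 0.78, 0.53 to 0.79, -0.90 to -0.44, -0.95 to -0.49 and -0.25 to 0.13 in that order. RLE and nuclear scaling gave 0.47 for cry1 cry2 against WT, and RLE gave -0.44 and nuclear or TMM scaling -0.45 for agb1 against cry1 cry2; TMM scaling was chosen after seeing the data. Of 91 called values none reversed, 26 were kept under every alternative and 52 were lost under DESeq2. In hy5 the 8 kept were ATMG00030, COB, NAD7, ATMG00520, NAD4, ATP1, ATMG01200 and COX1, and in cry1 cry2 the 5 kept were COB, NAD4, ATP9, ATP1 and ATMG01200. The cause of each loss was not tested. Replicate numbers did not pair libraries (correlations of deviations -0.039 to 0.06), and with the replicate block 21 loci were called in hy5 and 24 in cry1 cry2.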
